A study of Mus musculus with 9 samples.

Results

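The major histocompatibility complex (MHC) class II genes H2-Aa, H2-Ab1 and H2-Eb1, the invariant chain gene Cd74, the peptide-loading genes H2-DMa, H2-DMb1 and H2-Oa, and the class II transactivator Ciita were followed in CD11b+ bone marrow cells of mice given extracellular vesicles (EVs) of prostate cancer cells. These 8 genes were selected by name, all 8 were present among the 23337 genes of the count tables, and all 8 passed the filter on low counts together with 12553 genes in all. Male C57BL/6 mice, 3 to 6 weeks of age in the study's methods, fell into 3 groups of 3 mice, with 1 library per mouse. The PBS group received vehicle by tail vein in 100 µl. The EnzR EVs group, named EnzR exosome in the labels, received 10 µg of EV protein in 100 µl on days 1, 3 and 5. These EVs came from CWR-R1, a human prostate cancer cell line, in its enzalutamide-resistant form. The EnzR EVs + HDL NPs group received the same EVs and, on days 0, 2 and 4, synthetic high-density lipoprotein nanoparticles (HDL NPs), whose dose is 1 µM in the labels and 100 µM in the study's methods. No group of these data received HDL NPs alone or EVs of a non-malignant cell, so an action of HDL NPs without EnzR EVs was not measured. Mice were euthanised 24 h after their last injection, CD11b+ marrow cells were taken by positive selection, and stranded total RNA was sequenced after rRNA depletion.

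MHC class II molecules are pairs of an alpha and a beta chain that display peptides from the endosome to CD4+ T cells. The invariant chain blocks the peptide groove of a new molecule and guides it to the endosome, where proteases trim the invariant chain, H2-DM exchanges its remnant for a peptide and H2-O restrains H2-DM. CIITA does not bind DNA itself but joins a complex of RFX, CREB and NF-Y factors on the X and Y boxes of class II promoters, and it sets how much of these genes a cell makes. In marrow the genes are most active in B cells, dendritic cells and macrophages, weaker in monocytes and low in neutrophils, and CD11b+ cells are mostly neutrophils and monocytes.

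Promoters are shown because the X and Y boxes of class II promoters are where the CIITA complex sits. They are given for the members with an entry in the RefSeq promoter set used here (GRCm38.p6, the assembly of mm10). Entries were found for 5 of the 8 members, and H2-Ab1, Ciita and Cd74 are named only. Each run holds the 100 bases before the annotated start, 5′ to 3′ on the gene's strand. Capitals mark GNAAC, the middle of an X box, and TGATTGG, a Y box with its CCAAT core on the other strand, and these letters were chosen after the sequences had been read.
H2-Aa, chr17:34287824-34287923, minus strand: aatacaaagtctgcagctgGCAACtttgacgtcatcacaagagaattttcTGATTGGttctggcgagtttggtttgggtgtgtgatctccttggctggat
H2-Eb1, chr17:34305767-34305866, plus strand: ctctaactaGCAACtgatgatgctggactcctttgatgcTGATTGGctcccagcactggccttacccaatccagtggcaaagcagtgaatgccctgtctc
H2-DMb1, chr17:34153091-34153190, plus strand: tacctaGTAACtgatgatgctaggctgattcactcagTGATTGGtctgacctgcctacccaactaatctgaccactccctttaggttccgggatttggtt
H2-Oa, chr17:34092279-34092378, plus strand: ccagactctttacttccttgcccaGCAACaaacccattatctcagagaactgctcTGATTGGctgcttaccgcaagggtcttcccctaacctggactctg
H2-DMa, chr17:34122732-34122831, plus strand: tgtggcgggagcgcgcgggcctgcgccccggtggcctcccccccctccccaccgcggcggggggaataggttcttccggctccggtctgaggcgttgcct

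The 4 promoters of H2-Aa, H2-Eb1, H2-DMb1 and H2-Oa held the pair with 25 or 26 bases between its parts, and the Y box began 45 to 63 bases before the start. Its parts do not overlap. Across the 32851 RefSeq promoters of 300 bases, TGATTGG on either strand was found in 7.817% and the pair, with 15 to 45 bases between, in 0.8523%. Neither of the 2 windows listed for H2-DMa (34122582 to 34122881 and 34125268 to 34125567) held the pair or TGATTGG. The gene is annotated from 34119541 to 34139101 (GENCODE M21), and other starts within it were not examined. The absence therefore holds for these windows and not for H2-DMa as a whole. These matches describe the letters only.

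Total counts ran from 2575776 (EnzR EVs replicate 1) to 18110561 (EnzR EVs replicate 2), and 3 counts, the floor used here, stood at 1.65 and 0.160 CPM in them. CPM here are TMM-scaled counts, relative to a library's total in units of 1e6, and limits drawn from counts hold sampling noise of reads alone. Reads on the rRNA precursor Rn45s made up 42.7% of EnzR EVs replicate 1, 20.3% of PBS replicate 1, 14.2% of EnzR EVs replicate 3 and at most 2.87% elsewhere. These 3 libraries stand apart, so member values are also given without them where they matter. The selected surface antigen gene Itgam, which encodes CD11b, lay between 1389 and 2006 CPM in all 9 libraries.

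Compared per kilobase of annotated exon (GENCODE M21), Cd74 had the highest level of the 8 members in PBS mice, at 113 ± 15.8 CPM per kb (SD, n = 3). The 3 chain genes followed at 29.7 ± 13.1 for H2-Eb1, 24.8 ± 12.2 for H2-Aa and 23.4 ± 7.24 for H2-Ab1, and did not differ from each other beyond their spread. H2-DMb1 stood at 10.7 ± 0.0159 and H2-DMa at 7.61 ± 1.68 CPM per kb, over 1.681 and 3.448 kb of exon. Before division by length H2-DMa was the higher of these 2, at 26.2 against 18.0 CPM. Their order per kilobase therefore rests on the annotated lengths, whose error the SDs do not measure. Ciita at 1.03 ± 0.351 and H2-Oa at 0.995 ± 0.482 were lowest and did not differ beyond their spread. The order of Cd74, the 3 chain genes, the 2 H2-DM genes and the last pair was the same in the mean of the EnzR EVs and EnzR EVs + HDL NPs groups. Ciita lies on chromosome 16 (10480059 to 10528418, plus strand, mm10), and all members except Cd74 and Ciita lie within the MHC on chromosome 17, between 34092340 (H2-Oa, plus strand) and 34316674 (the end of H2-Eb1, plus strand) in mm10.

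H2-Aa, the alpha chain of the I-A molecule, was the most variable of the better-expressed members. PBS mice had 41.9, 112 and 129 CPM, EnzR EVs mice 20.3, 100.2 and 72.1, and EnzR EVs + HDL NPs mice 114, 84.4 and 83.3. The lowest mouse of the PBS group and the lowest of the EnzR EVs group were the 2 smallest libraries, with 238 and 37 reads on the gene, and all 3 groups overlapped. The log2 fold change was -0.52 in EnzR EVs against PBS (95% interval -1.62 to 0.58, SE 0.50, adjusted p = 0.928, edgeR). The interval is wide enough to hold anything from a fold of 0.325 to one of 1.49. It was -0.01 in EnzR EVs + HDL NPs against PBS (-1.10 to 1.08, adjusted p = 1.00, edgeR) and 0.51 in EnzR EVs + HDL NPs against EnzR EVs (-0.59 to 1.61, adjusted p = 0.638, edgeR). Without the 3 libraries of high Rn45s the values were -0.26, -0.36 and -0.10, so that the sign of the last one turned. That setting leaves 1 library in the EnzR EVs group, which is assumed to vary like the others.

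H2-Ab1, the beta chain that pairs with H2-Aa, varied far less. It stood at 40.1, 63.7 and 76.8 CPM in PBS mice, 63.7, 62.7 and 65.6 in EnzR EVs mice, and 68.8, 56.1 and 63.3 in EnzR EVs + HDL NPs mice. The 6 mice given EVs fell within the range of the PBS mice, whose low value was again replicate 1. The log2 fold changes were 0.08 (-0.41 to 0.57), 0.05 (-0.43 to 0.54) and -0.03 (-0.52 to 0.46) in the 3 comparisons in the order above, with adjusted p = 0.961, 1.00 and 0.960 by edgeR. H2-Eb1, the beta chain of I-E, lacks its alpha partner in C57BL/6 mice, and the alpha gene H2-Ea-ps was at 0 counts in all 9 libraries. H2-Eb1 itself was expressed, at 30.6, 61.4 and 81.0 CPM in PBS mice, 31.3, 59.8 and 47.9 in EnzR EVs mice, and 61.9, 55.7 and 57.5 in EnzR EVs + HDL NPs mice. The mice of the last group were close together while the other groups each held 1 mouse at 30.6 or 31.3 CPM. Its log2 fold changes were -0.30 (-1.01 to 0.42), 0.01 (-0.70 to 0.71) and 0.31 (-0.41 to 1.02), with adjusted p = 0.928, 1.00 and 0.663 by edgeR.

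Cd74, the invariant chain, was the most abundant member, at 167, 186 and 219 CPM in PBS mice, 185, 176 and 269 in EnzR EVs mice, and 189, 153 and 237 in EnzR EVs + HDL NPs mice. In each group replicate 3 was highest, and the groups overlapped throughout. Group means were 191 ± 26.6, 210.1 ± 51.5 and 193 ± 42.6 CPM (SD, n = 3). The log2 fold changes were 0.14 (-0.35 to 0.63), 0.02 (-0.47 to 0.51) and -0.12 (-0.62 to 0.37), with adjusted p = 0.934, 1.00 and 0.803 by edgeR. A 2-fold difference in either direction lay outside all 3 intervals.

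Ciita, the transactivator, stood at 6.16, 10.4 and 12.8 CPM in PBS mice, 4.39, 11.3 and 9.93 in EnzR EVs mice, and 12.0, 8.88 and 14.0 in EnzR EVs + HDL NPs mice. The lowest value rests on 8 reads, and the groups overlapped. The log2 fold changes were -0.11 (-0.88 to 0.66), 0.22 (-0.51 to 0.96) and 0.34 (-0.42 to 1.10), with adjusted p = 0.969, 1.00 and 0.655 by edgeR.

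H2-DMa and H2-DMb1 encode the chains of the peptide exchange factor. H2-DMa was at 32.9, 23.3 and 22.5 CPM in PBS mice, 23.6, 22.8 and 25.3 in EnzR EVs mice, and 24.7, 19.6 and 20.7 in EnzR EVs + HDL NPs mice. PBS replicate 1, lowest of its group for each of the other 7 members, was highest for H2-DMa. Its log2 fold changes were -0.13 (-0.57 to 0.32), -0.27 (-0.70 to 0.16) and -0.14 (-0.58 to 0.30), with adjusted p = 0.934, 1.00 and 0.741 by edgeR. H2-DMb1 was at 17.95, 18.0 and 17.96 CPM in PBS mice, 17.6, 14.95 and 13.7 in EnzR EVs mice, and 16.7, 14.0 and 15.1 in EnzR EVs + HDL NPs mice. All 6 mice given EVs had less than every PBS mouse, but the gap between PBS and EnzR EVs mice was as small as that between 17.95 and 17.6 CPM. The log2 fold changes were -0.24 in both EV groups against PBS (-0.65 to 0.16 and -0.62 to 0.15) and 0.01 between them (-0.39 to 0.41). The adjusted p were 0.928, 1.00 and 0.989 by edgeR, and the two-sided exact permutation p was 0.1, the smallest that 3 against 3 allows, in both comparisons with PBS. The SD of the PBS mice, 0.0268 CPM, is smaller than counting error alone on their 102, 313 and 314 reads would give, so it is a poor measure of the spread between mice. H2-DMb1 has a close copy next to it, H2-DMb2, at 2.11 to 4.39 CPM, and reads that match both may have been left out in the authors' counting.

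H2-Oa, the alpha chain of the H2-DM inhibitor, was near the limit of detection. PBS mice had 4, 25 and 36 reads (0.704, 1.44 and 2.06 CPM), EnzR EVs mice 0, 29 and 7, and EnzR EVs + HDL NPs mice 32, 13 and 7. The 0 of EnzR EVs replicate 1 allows up to 1.65 CPM, which covers all but the 2 highest of the other libraries, and no difference was detectable at this depth. The intervals of the log2 fold change were the widest of the members, -1.96 to 1.00, -1.90 to 0.87 and -1.48 to 1.41 around -0.48, -0.51 and -0.03, with adjusted p = 0.933, 1.00 and 0.986 by edgeR.

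**Figure D1:**
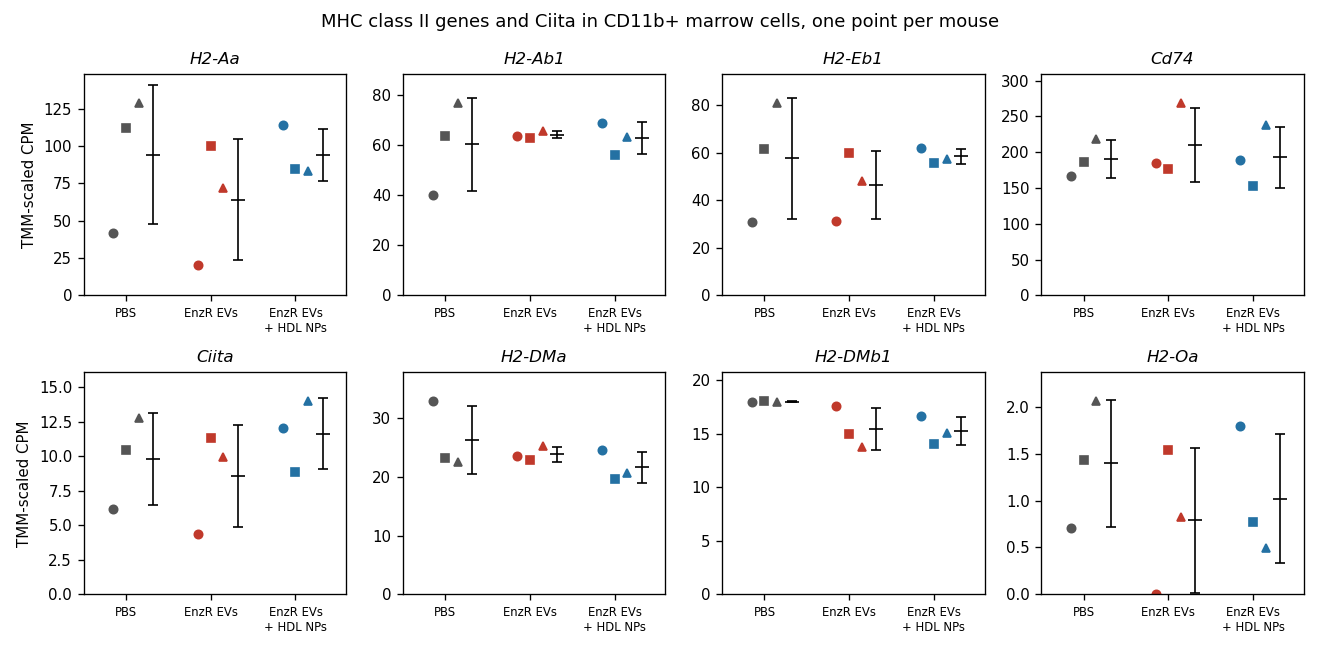
TMM-scaled CPM of the 8 genes (vertical axes, from 0) in the 3 groups, with 1 point per mouse (circle, square and triangle for replicates 1, 2 and 3) and, at the right of each group, the mean and SD of 3 mice. The groups overlap for every gene but H2-DMb1, where the PBS mice lie at 17.95 to 18.0 CPM and all others below, and H2-Aa spans 20.3 to 129 CPM.

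Across the 3 comparisons no member was called by edgeR at an adjusted p under 0.05, and none had an unadjusted p under that value either. Over all genes the counts were as follows. EnzR EVs against PBS called 0 of 12553 genes (0%), with 436 genes (3.47%) at an unadjusted p under 0.05 and 999 genes (7.96%) whose groups did not overlap. EnzR EVs + HDL NPs against PBS called 0 (0%), with 268 genes (2.13%) and 1653 genes (13.2%) by the other rules. EnzR EVs + HDL NPs against EnzR EVs called 0 (0%), with 1325 genes (10.6%) and 2205 genes (17.6%). DESeq2 called 11, 8 and 1 genes (0.0876%, 0.0637% and 0.00797% of those tested), limma's voom 0 in each, and voom with sample quality weights 1990, 10 and 653 (15.9%, 0.0797% and 5.2%), none of them a member. The weights were 0.365 for PBS replicate 1 and 0.315 and 0.334 for EnzR EVs replicates 1 and 2, beside 0.754 to 3.61 in the other libraries, so that 2 of the 3 EnzR EVs mice counted little there. The lowest adjusted p of a member in any setting tried was 0.0717, for H2-DMb1 in EnzR EVs against PBS with sample quality weights.

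Of the 8 members, 1 (H2-DMb1) did not overlap between groups in each comparison with PBS, which is 12.5% beside the 7.96% and 13.2% of all genes, shares near the background. Between the EV groups it was 0 of 8 beside 17.6%. The median log2 fold change of the members was -0.18 in EnzR EVs against PBS, where 6 members were below 0 and 2 above, beside -0.03 over all genes tested. It was -0.0020 beside -0.0072 in EnzR EVs + HDL NPs against PBS, and -0.01 beside 0.03 between the EV groups, with 4 members on each side of 0 in both. The comparisons share samples, so they are not independent. The 95% interval excluded a 2-fold difference in both directions for 5, 6 and 4 of the 8 members. A p that misses the threshold does not show that the groups are alike, and for H2-Aa and H2-Oa a 2-fold difference stays within the interval of at least 1 direction in every comparison.

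**Figure D2:**
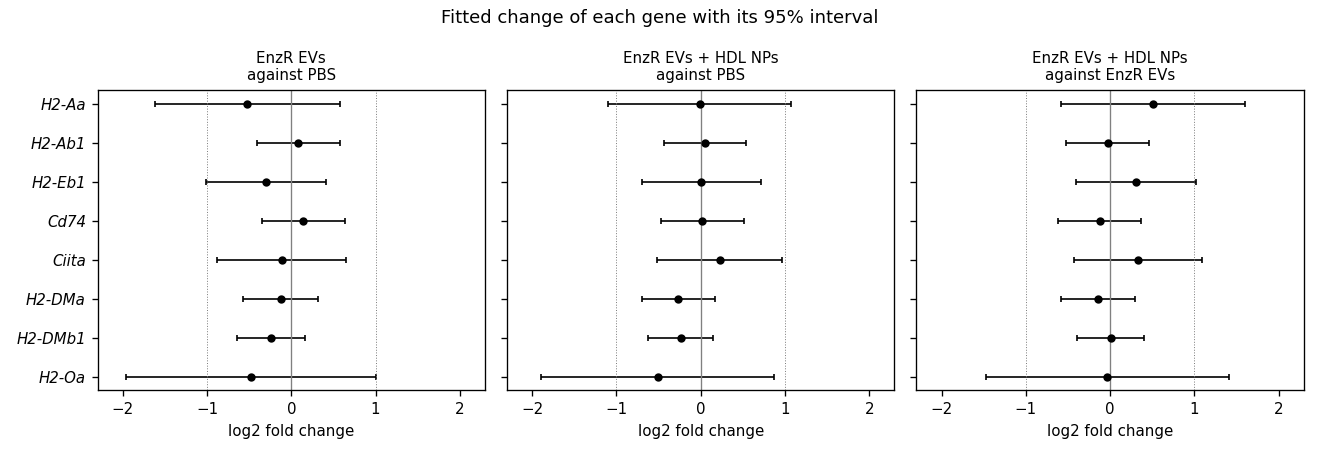
Fitted log2 fold change of each gene (horizontal axis, edgeR) with its 95% interval, in 1 panel per comparison; dotted lines mark a 2-fold difference. Every interval holds 0, and the widest are those of H2-Oa and H2-Aa.

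Among themselves the members fell into patterns that cut across the groups. Over the 9 libraries the log2 CPM of H2-Aa ran with that of H2-Eb1 (Pearson r = 0.928), Ciita (0.926) and H2-Oa (0.919), while its r was 0.447 with its partner H2-Ab1, 0.167 with Cd74, -0.366 with H2-DMa and -0.182 with H2-DMb1. These are descriptions over 9 libraries that share the depth differences given above, and no test was made. A class II profile, the mean of the centred log2 CPM of H2-Aa, H2-Ab1, H2-Eb1 and Cd74, was lowest in EnzR EVs replicate 1 (-0.66) and PBS replicate 1 (-0.61) and highest in PBS replicate 3 (0.48). Among genes that are not members, the 10 nearest to this profile were Rapgef5 (r = 0.974), Rarb, Serpine2, Prnp, Gpm6a, Capn3, Adipoq, Nadsyn1, Folr2 and Gas6 (r = 0.951). None of them reached more than 19.8 CPM in any library. In EnzR EVs replicate 1 only Serpine2, Prnp and Nadsyn1 of these stood above the floor of 1.65 CPM. The rest were at 0 or 0.549 CPM there, so their r rests in part on values under the floor. Without the 2 libraries farthest from the median of the profile, EnzR EVs replicate 1 and PBS replicate 1, r was 0.833 for Rapgef5, 0.681 for Gas6 and 0.661 for Ciita. It was 0.777 for H2-Aa and 0.953 for H2-Ab1, which are parts of the profile itself. Their r is therefore not comparable with that of the other genes.

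The ratio of H2-Aa to H2-Ab1 reads, which no scaling of libraries can change, showed how far the partner chains parted. It was 1.04, 1.76 and 1.68 in PBS mice, 0.319, 1.60 and 1.10 in EnzR EVs mice, and 1.66, 1.50 and 1.32 in EnzR EVs + HDL NPs mice. The lowest value had an exact 95% counting interval of 0.214 to 0.465, which lay below the intervals of all other libraries. The 3 lowest ratios were those of the 3 libraries with over 10% Rn45s, and their part in the spread of H2-Aa was not tested. H2-Aa reads per Cd74 read gave the same 3 libraries, at 0.110, 0.252 and 0.268 against 0.351 to 0.604 in the others. H2-Eb1 to H2-Ab1 did too, at 0.491, 0.730 and 0.763 against 0.900 to 1.05. The neutrophil gene S100a8, which encodes an abundant cytosolic calcium-binding protein, was also lowest in these 3, at 1746, 6236 and 7806 CPM against 12505 to 38307 CPM. Between groups the log2 ratio of H2-Aa to H2-Ab1 differed by -0.82 in EnzR EVs against PBS (two-sided exact permutation p = 0.3, 0.54 adjusted over 9 ratio comparisons) and by 0.03 in EnzR EVs + HDL NPs against PBS (exact permutation p = 1).

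**Figure D3:**
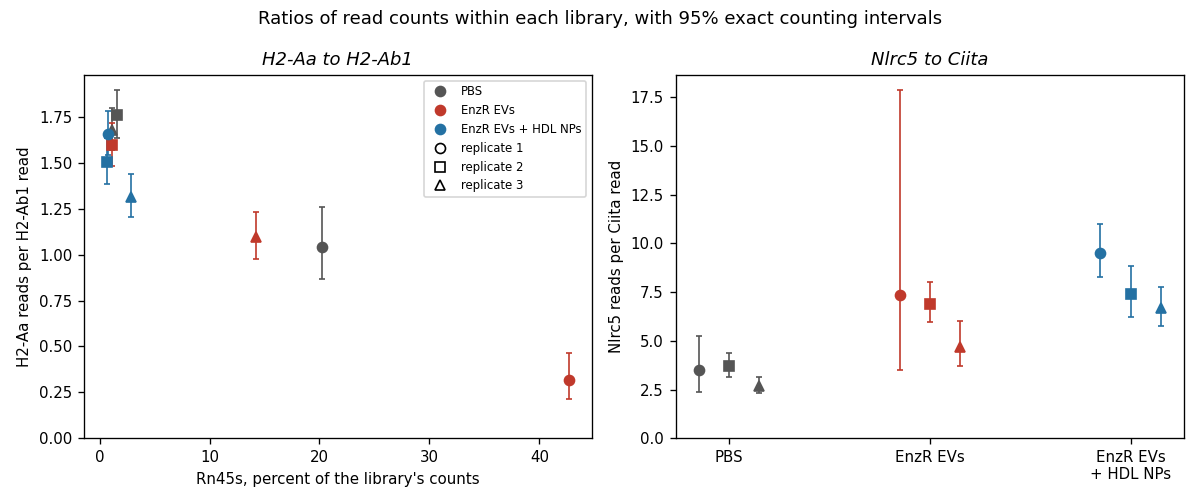
Left, H2-Aa reads per H2-Ab1 read against the percent of counts on Rn45s in each of the 9 libraries; right, Nlrc5 reads per Ciita read by group. Bars are exact 95% counting intervals, and the 3 libraries with over 10% Rn45s hold the 3 lowest H2-Aa ratios (0.319, 1.04 and 1.10), while Nlrc5 to Ciita runs from 2.70 to 3.69 in PBS mice and from 4.68 to 9.51 in the other 6.

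The other genes of the pathway were followed in lists written by hand. Of the class II molecules that are not members, H2-Ob, the beta partner of H2-Oa, stood at 3.57 ± 0.749 CPM in PBS mice, 2.29 ± 1.35 in EnzR EVs mice and 2.13 ± 0.789 in EnzR EVs + HDL NPs mice, with overlapping groups. H2-DMb2, a second H2-DM beta chain, stood at 2.42 ± 0.389, 3.33 ± 0.917 and 2.76 ± 0.225 CPM (SD, n = 3 in each). H2-Eb2 and H2-Ea-ps did not pass the filter. None of the 7 genes of the RFX, NF-Y and CREB complex had an unadjusted p under 0.05, and the median log2 fold changes were -0.07, 0.06 and 0.11. Creb1 (-0.23), Nfya (-0.16) and Nfyb (0.27) had the smallest p of that list, and these are their values in EnzR EVs against PBS (adjusted p = 0.928 for all 3 by edgeR). Nfya alone of the 7 was called there with sample quality weights (adjusted p = 0.0352), beside 15.9% of all genes called by that fit. Its lowest values, 68.6, 71.3 and 65.3 CPM, were those of the 3 libraries of high Rn45s.

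Among the regulators of Ciita, edgeR called none, and Irf4 was called lower in EnzR EVs against PBS by DESeq2 and by voom with sample quality weights. Of 13 found, 1 was lower at an unadjusted p under 0.05 in each comparison with PBS, beside 1.92% and 1.12% of all genes, and it was Irf4, a factor of B cells, dendritic cells and alternatively activated macrophages. Irf4 stood at 15.1, 11.4 and 13.5 CPM in PBS mice, 7.13, 4.31 and 5.20 in EnzR EVs mice, and 9.18, 8.76 and 7.82 in EnzR EVs + HDL NPs mice. The 3 groups did not overlap at all. Its log2 fold change was -1.35 ± 0.24 (SE) in EnzR EVs against PBS (unadjusted p = 2.07e-04, adjusted p = 0.650, edgeR), the fourth smallest p of all genes, and -0.63 and 0.72 in the other comparisons (adjusted p = 1.00 and 0.461, edgeR). The adjusted p of EnzR EVs against PBS was 0.00193 by DESeq2, 0.0093 by voom with sample quality weights and 0.285 by voom without them. With the weights 4 of the 13 regulators were called in that comparison, 2 higher and 2 lower, beside the 15.9% of all genes called by the same fit.

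Irf1, a transcription factor that relays the interferon-gamma signal to the Ciita promoter, had its highest mean in the EnzR EVs + HDL NPs group. It was at 82.5, 130.0 and 122 CPM in PBS mice, 58.2, 166 and 107 in EnzR EVs mice, and 196, 181 and 164 in EnzR EVs + HDL NPs mice. The EnzR EVs + HDL NPs mice lay above every PBS mouse and overlapped the EnzR EVs mice. Its log2 fold change in EnzR EVs + HDL NPs against PBS was 0.69 (adjusted p = 1.00, edgeR), beside 0.22 for Ciita, whose groups overlapped. Against EnzR EVs it was also 0.69, and the adjusted p was 0.461 by edgeR and 0.0480 by voom with sample quality weights. The 3 lowest Irf1 values, 82.5, 58.2 and 107 CPM, were those of the 3 libraries of high Rn45s. EnzR EVs replicate 2, which is not one of them, was at 166 CPM, within the range of the EnzR EVs + HDL NPs mice. Usf1, also among the smallest p, stood at 68.7 ± 25.0, 95.5 ± 39.3 and 57.2 ± 3.01 CPM (SD, n = 3). In the 3 libraries of high Rn45s it was at 97.5 (PBS replicate 1), 136.6 and 91.6 CPM (EnzR EVs replicates 1 and 3). In the others it was at 53.6 to 60.3 CPM. Its groups overlapped, and EnzR EVs against PBS was called with the weights (adjusted p = 0.0201) and not by edgeR (0.928). Ifng itself, the gene of interferon-gamma, reached at most 1.10 CPM.

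**Figure D4:**
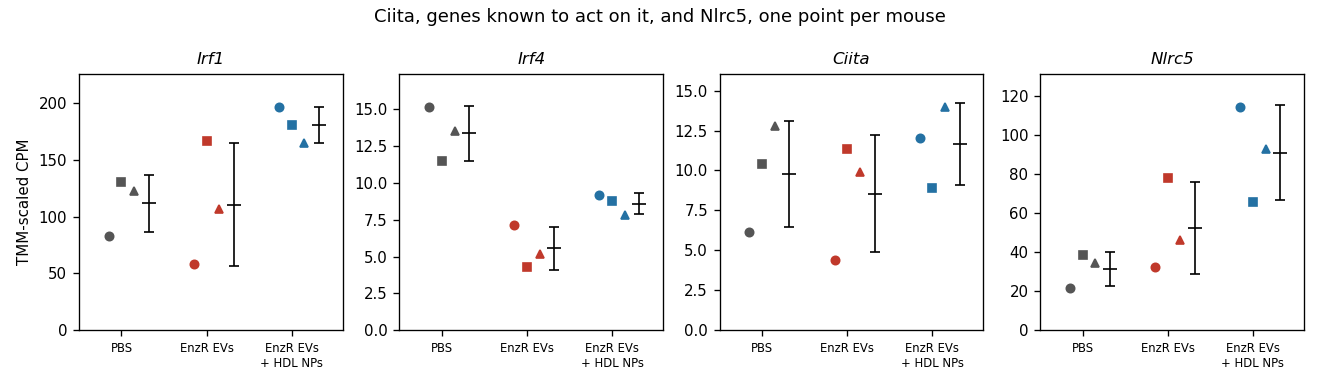
TMM-scaled CPM (vertical axes, from 0) of Irf1, Irf4, Ciita and Nlrc5 in the 3 groups, with 1 point per mouse and the mean and SD of 3 mice. Irf4 does not overlap between any of the groups, Irf1 and Nlrc5 of the EnzR EVs + HDL NPs mice lie above every PBS mouse, and Ciita overlaps throughout.

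Ciita and Nlrc5 are sister genes, and NLRC5 drives class I promoters as CIITA drives class II. Nlrc5 stood at 31.5 ± 8.76 CPM in PBS mice, 52.4 ± 23.5 in EnzR EVs mice and 91.2 ± 24.4 in EnzR EVs + HDL NPs mice (SD, n = 3), with log2 fold changes of 0.75, 1.52 and 0.77 (adjusted p = 0.928, 1.00 and 0.461, edgeR). DESeq2 and voom with sample quality weights both called it higher in EnzR EVs + HDL NPs against PBS (adjusted p = 0.0216 and 0.0379), and voom without weights did not (0.999). Nlrc5 reads per Ciita read were 3.51, 3.69 and 2.70 in PBS mice, 7.38, 6.91 and 4.68 in EnzR EVs mice, and 9.51, 7.42 and 6.66 in EnzR EVs + HDL NPs mice. All 6 mice given EVs had a higher ratio than every PBS mouse. The log2 ratio was higher by 0.91 and 1.25 in the 2 comparisons with PBS (two-sided exact permutation p = 0.1 for both, the smallest possible, and 0.45 adjusted over 9 ratio comparisons), and by 0.33 between the EV groups (exact permutation p = 0.4). This ratio was chosen with results of these data known, and it does not pass the threshold.

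Of the 10 class I presentation genes, 9 had a log2 fold change above 0 in EnzR EVs against PBS, with a median of 0.29, and 3 (Nlrc5, Psmb10 and Tapbp) had an unadjusted p under 0.05, beside 3.47% of all genes. Psmb10, a subunit of the immunoproteasome, stood at 45.3 ± 22.2, 91.7 ± 53.1 and 40.7 ± 5.16 CPM, and Tapbp, which bridges class I molecules to the peptide transporter, at 282 ± 88.8, 453 ± 173 and 253 ± 17.7 CPM (SD, n = 3 in the order PBS, EnzR EVs, EnzR EVs + HDL NPs). Both were highest in EnzR EVs replicate 1, the smallest library, at 149.8 and 630.5 CPM. The 3 libraries of high Rn45s held the 3 highest values of each. EnzR EVs replicate 3 had 79.6 and 444.5 CPM, and PBS replicate 1 had 70.9 and 383.5 CPM. Elsewhere Psmb10 was at 32.3 to 45.6 CPM and Tapbp at 220.3 to 284.5 CPM. The part of these libraries in the group values was not tested. With sample quality weights 4 of the 10 were called in EnzR EVs against PBS, all higher, beside 8.67% of all genes called higher by that fit. Among the 4 were Psmb10 (adjusted p = 0.0100) and Tapbp (0.0130). Both were called lower in EnzR EVs + HDL NPs against EnzR EVs (0.0474 for each), beside 5.2% of all genes called in either direction. In EnzR EVs + HDL NPs against PBS 6 of the 10 were above 0, with a median of 0.17.

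The endosomal enzymes that prepare the peptides summed to 1601 to 2121 CPM over the 9 libraries. Of 7, edgeR and DESeq2 called none. With sample quality weights voom called Ifi30 alone, in EnzR EVs against PBS (adjusted p = 0.0214), beside 15.9% of all genes called by that fit. Ifi30, the reductase that opens disulfide bonds of antigens, stood at 96.6, 64.2 and 64.3 CPM in PBS mice, 110.3, 111.7 and 99.5 in EnzR EVs mice, and 102.2, 71.1 and 60.2 in EnzR EVs + HDL NPs mice. Every EnzR EVs mouse was above every PBS mouse (log2 fold change 0.52, unadjusted p = 0.0493, adjusted p = 0.928, edgeR). Lgmn, an asparaginyl endopeptidase, stood at 56.4 ± 10.3, 45.5 ± 3.08 and 38.9 ± 4.94 CPM, with all EnzR EVs + HDL NPs mice below the PBS mice (log2 fold change -0.54, adjusted p = 1.00, edgeR). Ctsb, a lysosomal cysteine protease, had log2 fold changes of -0.39, -0.27 and 0.11 with overlapping groups.

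Genes of class II turnover and costimulation were without a call by edgeR and DESeq2. With sample quality weights 4 of 6 were called lower in EnzR EVs against PBS, beside 7.19% of all genes called lower by that fit, and among the 4 were March1 (adjusted p = 0.0217), Cd83 (0.0367) and Cd80 (0.0476). March1, the ubiquitin ligase that removes class II from the surface, stood at 82.0, 159 and 160.1 CPM in PBS mice, 35.1, 145 and 83.5 in EnzR EVs mice, and 147, 174 and 135 in EnzR EVs + HDL NPs mice. Its lowest values were again those of the 3 libraries of high Rn45s. Cd83, which opposes March1, stood at 6.12 ± 2.66, 3.15 ± 1.98 and 4.39 ± 0.505 CPM, and Cd80, a ligand of CD28, at 13.3, 9.03 and 12.9 CPM in the group means. The same 3 libraries held the lowest values of both. PBS replicate 1 and EnzR EVs replicates 1 and 3 had 3.34, 1.10 and 3.31 CPM of Cd83. They had 9.86, 4.94 and 10.4 CPM of Cd80. In EnzR EVs against PBS 5 of these 6 genes were below 0, with a median log2 fold change of -0.47, beside -0.03 over all genes.

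Markers of cell types that carry class II were found in the CD11b+ fractions. Several of them had lower means in the mice given EVs, with no call by edgeR or DESeq2. With sample quality weights, 2 of 17 B lineage, 2 of 14 dendritic cell and 7 of 10 macrophage markers were called lower in EnzR EVs against PBS and 1 dendritic cell marker higher, beside 7.19% of all genes called lower and 8.67% higher. The same fit called Pax5 (adjusted p = 0.0289), Clec10a (0.0303), Cd209a (0.0130), Mrc1 (0.0156) and Vcam1 (0.0201), whose values follow. In bulk RNA, fewer cells of a type and less RNA per cell cannot be told apart. The 18 B lineage markers summed to 54.1 to 72.7 CPM in PBS mice, 37.7 to 57.6 in EnzR EVs mice and 40.9 to 68.1 in EnzR EVs + HDL NPs mice, with Bank1, a scaffold of B cell receptor signalling, the most abundant. Of the 17 tested, 15 had a log2 fold change below 0 in each comparison with PBS, counted separately, with medians of -0.82 and -0.44. The 3 with the smallest p were Pax5, Faim3 and Blnk. Pax5, the B lineage factor, was at 0.880, 0.633 and 0.629 CPM in PBS mice and at 0.118 to 0.225 CPM in 5 of the 6 mice given EVs (log2 fold changes -2.29 and -1.85, adjusted p = 0.928 and 1.00, edgeR). These values rest on 5, 11 and 11 reads in PBS mice and 4, 2 and 3 in EnzR EVs + HDL NPs mice. EnzR EVs replicates 2 and 3 had 3 and 1 reads. Most mice given EVs were thus at or under the floor of 3 counts. In EnzR EVs replicate 1 Pax5 had 0 reads, which allows up to 1.65 CPM, so that library cannot be placed below the PBS mice. Faim3 had at most 0.973 CPM in any library. Blnk was at 2.65 to 6.34 CPM in PBS mice, 2.36 to 5.49 in EnzR EVs mice and 1.55 to 2.93 in EnzR EVs + HDL NPs mice, so the groups overlapped. Ms4a1, a surface protein of B cells, was at 0.745 to 4.58 CPM in all 9 libraries.

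The 14 dendritic cell markers summed to 162 to 279 CPM in PBS mice, 156 to 360.0 in EnzR EVs mice and 149 to 173 in EnzR EVs + HDL NPs mice. Naaa was the most abundant in all 9 libraries and made up 48.2% to 69.4% of the sum. The sum and Naaa were both highest in the 3 libraries of high Rn45s. The sum was 279, 360.0 and 213 CPM in PBS replicate 1 and EnzR EVs replicates 1 and 3, against 149 to 173 CPM elsewhere. Naaa was at 184, 250 and 142 CPM in these, against 75.6 to 92.4 CPM elsewhere. In both comparisons with PBS a majority was below 0, 9 and 11 of 14, with medians of -0.39 and -0.36. Clec10a, a lectin of conventional dendritic cells, stood at 10.0, 10.5 and 9.73 CPM in PBS mice and at 4.94 to 7.71 CPM in the 6 mice given EVs (log2 fold changes -0.73 and -0.57, unadjusted p = 0.00703 and 0.0199, adjusted p = 0.928 and 1.00, edgeR). Cd209a, a lectin of monocyte-derived dendritic cells, was at 4.58, 10.4 and 12.99 CPM in PBS mice, 7.13, 2.71 and 2.96 in EnzR EVs mice, and 5.69, 4.11 and 3.42 in EnzR EVs + HDL NPs mice. Ccr7, the receptor of migrating dendritic cells, was at 0.288 to 1.58, 0.213 to 1.10 and 0.119 to 0.281 CPM in the same order of groups. Xcr1 and Zbtb46, which define conventional dendritic cells, were between 0.358 and 1.76 CPM in all libraries.

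The 10 macrophage markers summed to 622 to 1210 CPM in PBS mice, 534 to 674 in EnzR EVs mice and 635 to 812 in EnzR EVs + HDL NPs mice, with Vcam1 the most abundant in 8 of 9. Of these, 9 and 10 were below 0 in the comparisons with PBS, with medians of -0.71 and -0.42. Mrc1, the mannose receptor, stood at 86.2, 123 and 203 CPM in PBS mice and at 48.8, 87.8 and 57.3 CPM in EnzR EVs mice (log2 fold change -1.07, adjusted p = 0.928, edgeR). Its 3 lowest values, 48.8, 57.3 and 86.2 CPM, were those of the 3 libraries of high Rn45s, and the next was 87.8 CPM. Vcam1, the adhesion receptor of marrow macrophages, averaged 294, 180 and 236 CPM. C1qb, a complement subunit, stood at 63.0, 46.9 and 68.9 CPM in PBS mice, 191, 45.9 and 66.9 in EnzR EVs mice, and 43.5, 34.3 and 33.2 in EnzR EVs + HDL NPs mice, and the 191 CPM came from the smallest library, EnzR EVs replicate 1. In PBS mice the macrophage sum and the class II profile had the same order, at 622, 818 and 1210 CPM beside -0.61, 0.20 and 0.48. They did in EnzR EVs + HDL NPs mice too, at 812, 635 and 637 CPM beside 0.25, -0.051 and 0.16. In EnzR EVs mice they did not, since replicate 3 had the lowest sum of all 9 libraries (534 CPM) with a profile of 0.10, and replicate 1 had 643 CPM with the lowest profile of all (-0.66). The dendritic cell sum had the order of the profile in EnzR EVs + HDL NPs mice (173, 149 and 157 CPM). It did not in PBS mice (279, 162 and 164 CPM) or EnzR EVs mice (360.0, 156 and 213 CPM). The B lineage sum did not have that order in any group. It was 72.3, 54.1 and 72.7 CPM in PBS mice, 57.6, 42.9 and 37.7 in EnzR EVs mice, and 68.1, 50.4 and 40.9 in EnzR EVs + HDL NPs mice. The part of B lineage, dendritic cell and macrophage RNA in the values of the class II members was not tested.

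Markers of neutrophils ran far higher, and those of monocytes summed to more than the macrophage markers in every library. The 13 neutrophil markers summed to 57311 to 115966 CPM in PBS mice, 32965 to 125005 in EnzR EVs mice and 83907 to 147263 in EnzR EVs + HDL NPs mice. S100a9 was the most abundant in 6 of 9 libraries, and Ngp or Ltf in the 3 of high Rn45s. In EnzR EVs against PBS 10 of the 13 were below 0 (median -0.12), in EnzR EVs + HDL NPs against PBS 7 were above 0 (median 0.07), and between the EV groups 10 were above 0 (median 0.13). Prtn3, Mpo and Elane, granule genes of neutrophil precursors and the 3 of smallest p, lay on the other side of 0 from these medians, with log2 fold changes of 0.34, 0.36 and 0.04 in EnzR EVs against PBS and of -0.64, -0.59 and -0.59 in EnzR EVs + HDL NPs against PBS, none called by edgeR or DESeq2. With sample quality weights 3 of the 13 were called lower and 1 higher in EnzR EVs against PBS, beside 7.19% and 8.67% of all genes. Prtn3 was called there (adjusted p = 0.0226). All 3 precursor genes were called lower in EnzR EVs + HDL NPs against EnzR EVs (0.0474 for each), beside 5.2% of all genes called in either direction. The highest Mpo values, 1209, 1673 and 1189 CPM, were those of the 3 libraries of high Rn45s. The 8 monocyte markers summed to 1362 to 2624 CPM over all libraries, with F13a1 the most abundant in 7 of 9 and Ccr2 in the others. Cx3cr1, the fractalkine receptor of patrolling monocytes, stood at 60.0, 69.1 and 67.7 CPM in PBS mice, 39.5, 45.8 and 43.2 in EnzR EVs mice and 49.1, 64.5 and 51.5 in EnzR EVs + HDL NPs mice (log2 fold change -0.61 in EnzR EVs against PBS, adjusted p = 0.928 by edgeR and 0.0146 with the weights). Klf4 was at 48.5 to 82.9 CPM in PBS mice, 39.6 to 48.3 in EnzR EVs mice and 35.3 to 59.4 in EnzR EVs + HDL NPs mice. Fcgr1 was at 10.4 to 17.8, 6.04 to 35.9 and 21.0 to 32.8 CPM in the same order. T and NK cell markers summed to at most 90.0 CPM and erythroid markers to at most 79.4 CPM in any library. Hba-a1 and Hba-a2 were at 0 throughout, while Slc4a1 was at 6.60 to 31.6 CPM, so these zeros are no measure of erythroid RNA. Nkg7 led its list in all 9 libraries and Slc4a1 in 7 of 9. Nkg7 was at 27.0 to 42.6 CPM in PBS mice, 35.7 to 66.9 in EnzR EVs mice and 16.4 to 29.4 in EnzR EVs + HDL NPs mice. In the same order Cd4 was at 2.64 to 8.70, 0 to 3.03 and 3.21 to 4.00 CPM, and Cd3d at 3.17 to 6.10, 1.10 to 3.43 and 4.11 to 4.96 CPM. Alas2 was at 11.3 to 19.7, 5.56 to 12.1 and 7.68 to 26.6 CPM, Car2 at 18.4 to 20.5, 8.30 to 15.4 and 7.26 to 15.6 CPM, and Epor at 0.748 to 1.94, 0.692 to 4.39 and 0.281 to 1.133 CPM. None was called by edgeR or DESeq2, and the 0 reads of Cd4 in EnzR EVs replicate 1 allow up to 1.65 CPM. With sample quality weights Nkg7 (adjusted p = 0.0338), Cd4 (0.0244), Alas2 (0.0266) and Car2 (0.0435) were called in EnzR EVs against PBS. These were 1 of 8 T and NK cell markers higher and 1 lower, and 2 of 6 erythroid markers lower. The same fit called 8.67% of all genes higher and 7.19% lower. Nkg7 was also called in EnzR EVs + HDL NPs against EnzR EVs (0.0474), beside 5.2% of all genes. The 3 libraries of high Rn45s held the 3 highest Nkg7 values (42.6, 66.9 and 42.9 CPM) and the 3 lowest of Cd4.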

How the data were processed

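RNA abundance was read out by strand-specific sequencing of total RNA (200 ng of total RNA, single-end reads of 75 bp) in CD11b+ bone marrow cells from 9 mice. What the authors deposited are unnormalized counts of reads on each gene, after adapter trimming (cutadapt 1.13), a filter on low quality and on rRNA, alignment (STAR, mm10) and counting (HTSeq 0.6.1p1) on the UCSC annotation; the strand setting of the counting is not given in the sources used here, so reads of antisense or overlapping genes could be included. RNA extraction is named as Trizol in the labels and as a column kit in the study's methods. Groups came from the sample titles, no batch is named, and the labels name separate mice as replicates.

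The tests used edgeR 4.0.16 under R 4.3.3 (TMM, default filter on low counts, robust quasi-likelihood fit to all 9 libraries with 1 coefficient per group), with Benjamini-Hochberg adjustment over 12553 genes and a threshold of 0.05. Values of single genes are TMM-scaled CPM with the SD over 3 mice; log2 CPM have a prior count of 2. A single value was also compared over mice with an exact two-sided permutation test; 3 against 3 cannot go below p = 0.1. Exon lengths came from GENCODE M21 and promoters from RefSeq, both on GRCm38; exon lengths cover all annotated transcripts and can exceed those of the authors' annotation. PBS replicates 2 and 3, the closest pair, had a chi-square of 4.72 per gene between their counts and were kept as separate samples. The fit was tested on simulated data.

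The members and the 15 gene lists (143 entries, 138 found in the files) were chosen with earlier results of these data known. Named in the text are all members, the 3 genes of each list with the smallest p, the 10 genes nearest the class II profile and the most abundant marker of each marker list; S100a8, Ngp, Ltf, Ccr2, Ms4a1, Xcr1, Zbtb46, Ifng and the alpha-globin genes were named after their values were seen or as defining markers. Results for some list genes are not reported here. Alternatives were DESeq2 1.42.0, limma 3.58.1 (voom, with and without sample quality weights), other scaling factors, filters and sets of libraries, genes left out, the replicate number as a block, and each replicate left out. Leaving out the 2 smallest libraries, or the 3 with over 10% Rn45s, was chosen after seeing the data.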

Additional observations from a re-analysis of the deposited data

How the results depend on the processing

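Depth limits H2-Oa and Ciita most, with 0 and 8 reads in EnzR EVs replicate 1, and 3 mice per group leave wide intervals for H2-Aa. No member was called under any alternative tried. The filter of at least 10 counts in every library kept 6 of the 8 members, so no median was taken there. The median log2 fold change of the members, where one was taken, ran from -0.35 (library size only) to -0.048 (without PBS replicate 3) in EnzR EVs against PBS, from -0.20 (without PBS replicate 1) to 0.19 (without PBS replicate 3) in EnzR EVs + HDL NPs against PBS, and from -0.091 (without EnzR EVs + HDL NPs replicate 1) to 0.24 (without EnzR EVs replicate 2) between the EV groups. With library size only, the median over all genes shifted to -0.18 in EnzR EVs against PBS and to 0.24 in EnzR EVs + HDL NPs against EnzR EVs.

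The number of genes called was 0 in each comparison by edgeR. In EnzR EVs against PBS it was 11 by DESeq2, 1990 by limma's voom with sample quality weights, 1 with no filter on low counts, 5 without the 2 smallest libraries and 10 without the 3 libraries of high Rn45s. In EnzR EVs + HDL NPs against PBS it was 8 by DESeq2 and 10 with sample quality weights. In EnzR EVs + HDL NPs against EnzR EVs it was 1 by DESeq2, 653 with sample quality weights, 1 with only the 6 libraries of the comparison, 1 without the 2 smallest libraries and 1 without the 3 of high Rn45s. Leaving out each replicate in turn gave 0 to 2 in the first and 0 to 1 in the last, with the highest count of both without PBS replicate 1. The cause of these shifts was not tested.

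Replicate numbers were not treated as pairs: samples of the same number correlated between -0.18 and 0.49 over 9 pairs, 6 of them over 0.1, and 5 of 9 libraries were closest to one of their own number. With the replicate number as a block, edgeR called 1, 0 and 0 genes and no member.

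The sign of small member differences turned under some alternatives, none of them past the threshold. In EnzR EVs against PBS, H2-Ab1 was at -0.060 with sample quality weights, -0.11 with library size only, -0.12 without the 2 smallest libraries and -0.16 without the 3 of high Rn45s. There Cd74 was at -0.034 with library size only and -0.20 without the 3 of high Rn45s, and H2-DMa at 0.10 with sample quality weights and 0.076 without the 2 smallest libraries. In EnzR EVs + HDL NPs against PBS, sample quality weights gave -0.15 for H2-Ab1, -0.23 for H2-Eb1, -0.11 for Cd74 and -0.040 for Ciita. Leaving out the 2 smallest libraries, or the 3 of high Rn45s, gave -0.16 for H2-Ab1, -0.29 for H2-Eb1 and -0.069 for Cd74 in that comparison. H2-Aa there was at 0.085 by voom, 0.022 with library size only and 0.22 with the replicate block. In EnzR EVs + HDL NPs against EnzR EVs, library size only gave 0.21 for H2-Ab1, 0.11 for Cd74, 0.085 for H2-DMa and 0.12 for H2-Oa. Without the 3 of high Rn45s, H2-Aa was at -0.10, H2-Eb1 at -0.038 and Cd74 at 0.13, and H2-Ab1 was at 0.015 with no filter and H2-Oa at 0.045 by DESeq2. H2-DMb1 there was at -0.0092 with DESeq2 size factors, -0.013 with upper quartile factors, -0.020 with the 6 libraries only, -0.0052 without Rn45s, hemoglobin and mitochondrial genes, and -0.0024 with the replicate block.

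Leaving out each replicate in turn moved EnzR EVs against PBS over -0.14 to 0.31 for H2-Ab1, -0.60 to 0.031 for H2-Eb1, -0.089 to 0.28 for Cd74, -0.32 to 0.12 for Ciita and -0.22 to 0.057 for H2-DMa. The moves without a change of sign were larger there for H2-Aa (-0.94 to -0.13) and H2-Oa (-1.21 to -0.13), with the lowest value of both without EnzR EVs replicate 2. It moved EnzR EVs + HDL NPs against PBS over -0.36 to 0.27 for H2-Aa, -0.16 to 0.26 for H2-Ab1, -0.29 to 0.33 for H2-Eb1 and -0.16 to 0.16 for Cd74, and, with no change of sign, over -1.18 to -0.15 for H2-Oa, 0.0038 to 0.45 for Ciita and -0.38 to -0.083 for H2-DMa. It moved EnzR EVs + HDL NPs against EnzR EVs over -0.11 to 0.020 for H2-Ab1, -0.32 to 0.11 for Cd74, -0.072 to 0.080 for H2-DMb1 and -0.71 to 0.69 for H2-Oa, and, with no change of sign, over 0.12 to 0.93 for H2-Aa.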
